A study of Rattus norvegicus with 12 samples.

Results

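This account covers genes of the p53 stress response and the Gadd45 family in rat brain after ischemic stroke. The members were given as a list of 9 genes: Cdkn1a, Gadd45a, Gadd45b, Gadd45g, Mdm2, Ccng1, Phlda3, Btg2 and Sesn1. They were found as the probe sets that the array annotation assigns to exactly 1 of these genes, which gave 12 of 31099 probe sets and 8 of the 9 genes. No probe set was assigned to Btg2, an antiproliferative p53 target, so its mRNA was not analysed here. Total RNA from the left hemisphere of the brain of 12 rats (male, Sprague-Dawley, aged 8 weeks) had been hybridised to 1-colour arrays, with 1 array for each rat. In the MCAO group (7 rats) the middle cerebral artery was occluded and then reperfused, a surgical model of stroke, and in the Sham group (5 rats) a sham operation was done. Tissue was taken 24 h after reperfusion, no strain, allele or drug differed between the groups, and neither the occluded side nor the length of the occlusion is named in the labels. The design holds 1 comparison, of MCAO with Sham rats, for mRNA changes that follow occlusion and reperfusion.

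The transcription factor p53 is kept low by the ubiquitin ligase Mdm2, whose gene is itself a p53 target. When DNA is damaged or a cell is stressed, p53 accumulates and induces genes that stop the cell cycle, such as Cdkn1a (the cyclin-dependent kinase inhibitor p21), and genes that dampen growth signalling, such as Phlda3 and Sesn1. The Gadd45 proteins are small acidic partners of Pcna, Cdk1 and the kinase Map3k4, through which they feed into the p38 and JNK kinases. Gadd45a is a p53 target, whereas Gadd45b and Gadd45g are known mainly as targets of cytokine and NF-kB signalling, and Gadd45b is also induced by neuronal activity.

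The 250 bases before the RefSeq start of each gene (build GRCr8, given 5′ to 3′ on the gene's strand) are shown for the Gadd45 family, whose mRNAs rose most among the members, and for Cdkn1a and Ccng1, which held a p53 response element there. Capitals mark that element, the octamer ATTTGCAT read by POU-domain factors, or the E-box CACGTG. The coordinates are chr4:97486800-97487049 (minus strand) for Gadd45a, chr7:9430719-9430968 (minus strand) for Gadd45b, chr17:13530352-13530601 (minus strand) for Gadd45g, chr20:7150682-7150931 (plus strand) for Cdkn1a and chr10:25684877-25685126 (minus strand) for Ccng1.
Gadd45a: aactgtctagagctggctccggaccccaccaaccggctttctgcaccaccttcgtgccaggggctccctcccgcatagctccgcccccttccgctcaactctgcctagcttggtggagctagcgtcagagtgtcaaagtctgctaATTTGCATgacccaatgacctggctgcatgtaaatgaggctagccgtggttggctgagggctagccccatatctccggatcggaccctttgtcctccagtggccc
Gadd45b: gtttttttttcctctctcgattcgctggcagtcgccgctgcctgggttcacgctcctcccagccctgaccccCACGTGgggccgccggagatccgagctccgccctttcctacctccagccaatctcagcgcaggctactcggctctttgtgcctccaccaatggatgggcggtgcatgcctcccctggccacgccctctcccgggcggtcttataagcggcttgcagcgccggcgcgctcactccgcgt
Gadd45g: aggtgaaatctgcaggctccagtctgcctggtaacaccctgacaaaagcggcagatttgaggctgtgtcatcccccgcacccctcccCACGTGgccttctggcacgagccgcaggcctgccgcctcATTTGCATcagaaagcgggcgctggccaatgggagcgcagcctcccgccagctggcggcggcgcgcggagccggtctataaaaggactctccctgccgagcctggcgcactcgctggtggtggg
Cdkn1a: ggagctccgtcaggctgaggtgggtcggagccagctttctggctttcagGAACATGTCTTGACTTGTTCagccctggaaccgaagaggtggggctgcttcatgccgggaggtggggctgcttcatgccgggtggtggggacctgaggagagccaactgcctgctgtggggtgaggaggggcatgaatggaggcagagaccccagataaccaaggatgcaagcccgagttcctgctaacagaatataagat
Ccng1: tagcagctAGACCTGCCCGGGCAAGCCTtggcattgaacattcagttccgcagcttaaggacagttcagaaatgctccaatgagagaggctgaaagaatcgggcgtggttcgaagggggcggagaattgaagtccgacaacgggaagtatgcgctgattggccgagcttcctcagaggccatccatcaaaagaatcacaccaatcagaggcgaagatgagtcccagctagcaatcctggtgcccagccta

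All 9 listed genes had an entry in the RefSeq promoter table. A p53 response element was searched as 2 adjacent parts of 10 bases with no spacer and at most 1 mismatch in all. Each part was compared with the consensus RRRCWWGYYY, where R is A or G, W is A or T and Y is C or T. Such an element was found in Cdkn1a (201 to 182 bases before the start) and in Ccng1 (242 to 223 bases before). It was found in 20 of all 33469 promoters of this length, or 0.0598%. With a spacer of up to 13 bases, Gadd45a had a match as well (69 to 39 bases before the start), and 0.801% of all promoters did. The octamer was found in Gadd45a (105 to 98 bases before) and Gadd45g (124 to 117 bases before), against 1.56% of all promoters. The E-box was found in Gadd45b and Gadd45g, against 5.59% of all promoters. Other letters searched on either strand were TGACGTCA (the cAMP response element, in Btg2 alone of the members, against 1.59%), TGANTCA (the AP-1 motif, in 0 members, against 6.34%) and CCAAT (in 7 of the 9 genes, against 34.0%). None of these motifs overlapped another, apart from the p53 element of Cdkn1a, which shares bases with a second, spaced match. A match is a description of the letters in this window only, and the p53 element used mismatch and spacer limits chosen after the sequences had been read.

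Median log2 signals per array ran from 7.23 to 7.27, and the number of arrays limits the precision. Of 12157 genes tested, 6340 varied between arrays (SD of at least 0.01), and the other genes were nearly constant in the deposited values. All 12 member probe sets varied. Of the 2229 varying genes that were higher in MCAO, MCAO 4 had the lowest value of the 7 MCAO arrays for 48.7% and MCAO 2 for 43.1%. As a sign of RNA integrity, the difference between the 3′ and the 5′ control probe sets for beta-actin (log2, 3′ minus 5′) ran from 1.27 to 1.47 in MCAO and from 1.40 to 1.46 in Sham, so the groups overlapped, with MCAO 4 the highest at 1.47.

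Of the 8 measured member genes 7 rose in MCAO and 1, Sesn1, fell (limma, Benjamini-Hochberg adjusted p under 0.05 over all genes tested). Among all genes tested 22.2% rose and 22.1% fell, and among the varying genes 35.2% rose and 34.1% fell. The 3 Gadd45 genes rose at least 2-fold, which 1.79% of all genes tested and 3.44% of the varying genes did. All 7 MCAO values lay above all 5 Sham values for 5 members (Gadd45a, Gadd45b, Gadd45g, Cdkn1a and Mdm2), against 10.8% of all genes tested and 17.9% of the varying genes. The median log2 change of the 8 members was 0.76, against 0.02 over the varying genes. At the level of probe sets 10 of 12 rose and 1 fell, where 22.7% of all tested probe sets rose and 19.7% fell. The 10 include Cdkn1a probe set 1387391_at, which was tested only because of its MCAO values, so this count is a description only. The count was also 10 without a filter, and 9 with the filter at the 50th percentile. In a whole hemisphere, a change in the number of cells of a type and a change in RNA per cell cannot be told apart.

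**Figure D1:**
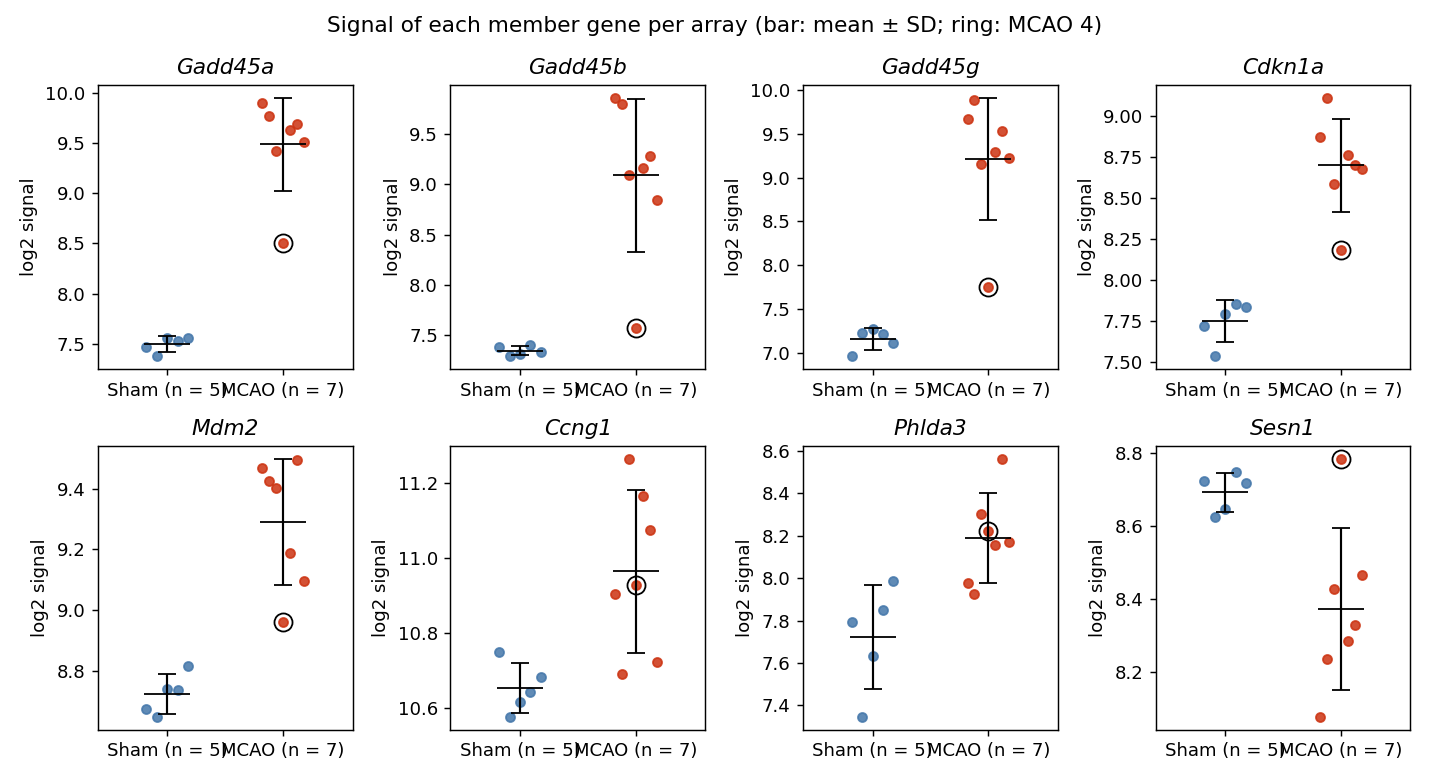
Log2 signal (vertical axis, its own range in each panel) of the 8 member genes in each Sham rat (blue, n = 5) and each MCAO rat (red, n = 7), with the mean and SD as a bar. The Gadd45 genes, Cdkn1a and Mdm2 show no overlap between the groups, and the ringed MCAO 4 is the lowest MCAO value for these 5 genes and the highest for Sesn1.

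The Gadd45 family gave the 3 largest rises of the members. Gadd45a (probe set 1368947_at, Entrez Gene 25112) had log2 signals of 7.47, 7.38, 7.56, 7.53 and 7.55 in Sham 1 to 5, and in MCAO its lowest, median and highest values were 8.50, 9.63 and 9.90. The Sham rats lay within a narrow band, and even the lowest MCAO rat, MCAO 4, stood well above it. The mean rose from 7.50 ± 0.08 (SD, n = 5) to 9.49 ± 0.46 (SD, n = 7), a log2 change of 1.99 ± 0.21 (SE) or 3.98-fold (limma adjusted p = 0.000347).

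Gadd45g (1388792_at, Entrez Gene 291005) had values of 6.96, 7.22, 7.27, 7.21 and 7.11 in Sham, and 7.75, 9.29 and 9.89 as the lowest, median and highest MCAO values. The highest was MCAO 2 and the lowest MCAO 4. Its mean rose from 7.16 ± 0.12 (SD, n = 5) to 9.22 ± 0.70 (SD, n = 7), a log2 change of 2.06 ± 0.31 (SE) or 4.17-fold (limma adjusted p = 0.00153). By size of rise it ranked 32 and Gadd45a 35 among the 12157 genes tested.

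Gadd45b (1372016_at, Entrez Gene 299626) had values of 7.38, 7.29, 7.31, 7.41 and 7.34 in Sham, and 7.57, 9.16 and 9.86 as the lowest, median and highest in MCAO. MCAO 4 was only 0.23 above the Sham mean, whereas the other MCAO rats were 1.50 to 2.51 above it. Its mean rose from 7.35 ± 0.05 (SD, n = 5) to 9.09 ± 0.76 (SD, n = 7), a log2 change of 1.74 ± 0.34 (SE) or 3.34-fold (limma adjusted p = 0.00340), which ranked 52 of all genes tested. Without MCAO 4 the log2 changes were 2.16 for Gadd45a, 2.30 for Gadd45g and 1.99 for Gadd45b.

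Cdkn1a (Entrez Gene 114851), the p21 gene, was measured by 2 probe sets, and both rose. The brighter probe set, 1388674_at, had values of 7.72, 7.54, 7.79, 7.85 and 7.84 in Sham, and 8.18, 8.70 and 9.11 as the lowest, median and highest in MCAO. No MCAO rat fell inside the Sham range, and MCAO 2 was the highest and MCAO 4 the lowest. The mean rose from 7.75 ± 0.13 (SD, n = 5) to 8.70 ± 0.28 (SD, n = 7), a log2 change of 0.95 ± 0.13 (SE) or 1.93-fold (limma adjusted p = 0.00118).

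The dimmer Cdkn1a probe set, 1387391_at, had values of 6.24, 5.99, 5.98, 6.21 and 6.25 in Sham, and 6.88, 7.40 and 7.53 as the lowest, median and highest in MCAO. It rose by 1.10 ± 0.15 (SE) on the log2 scale or 2.14-fold (limma adjusted p = 0.00119 over all tested probe sets). All its Sham values lay under the filter of 6.61, so it was tested only because of its MCAO values. The 2 probe sets ordered the MCAO rats differently: MCAO 2 was 1.36 above the Sham mean by the brighter probe set and 0.80 by the dimmer one, whereas MCAO 3 was 0.84 and 1.26 above. Across the 7 MCAO arrays they had Pearson r = 0.22 (exact permutation p = 0.634, adjusted p = 0.634 over 5 pairs of probe sets) and Spearman rho = 0.57 (exact permutation p = 0.200, adjusted p = 0.200). Without MCAO 4 and MCAO 7, the arrays farthest from the median of 1387391_at, r was -0.73.

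Mdm2 (Entrez Gene 314856), which encodes the ubiquitin ligase of p53, had 3 probe sets, and all 3 rose with no overlap between the groups, as was so for 10.5% of all tested probe sets. The brightest, 1383288_at, had values of 8.68, 8.65, 8.74, 8.74 and 8.82 in Sham, and 8.96, 9.40 and 9.49 as the lowest, median and highest in MCAO. The mean rose from 8.73 ± 0.07 (SD, n = 5) to 9.29 ± 0.21 (SD, n = 7), a log2 change of 0.57 ± 0.10 (SE) or 1.48-fold (limma adjusted p = 0.00202). MCAO 4 was the lowest MCAO rat by all 3 probe sets.

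The other Mdm2 probe sets gave log2 changes of 0.49 ± 0.08 (1383485_at) and 0.69 ± 0.10 (1384427_at, SE, limma adjusted p = 0.00195 and 0.00168 over all tested probe sets). Unlike those of Cdkn1a, the Mdm2 probe sets ranked the MCAO rats much alike, with Pearson r of 0.88, 0.95 and 0.96 across the 7 arrays (exact permutation p = 0.00992, 0.000794 and 0.000992, adjusted p = 0.0165, 0.00248 and 0.00248 over 5 pairs). Their Spearman rho values were 0.86, 0.93 and 0.96 (exact permutation p = 0.0238, 0.00675 and 0.00278, adjusted p = 0.0397, 0.0169 and 0.0139). Without the 2 arrays farthest from the median the 3 r values were 0.50, 0.84 and 0.91. Whether the Cdkn1a and Mdm2 pairs differ in their correlation was not tested.

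**Figure D2:**
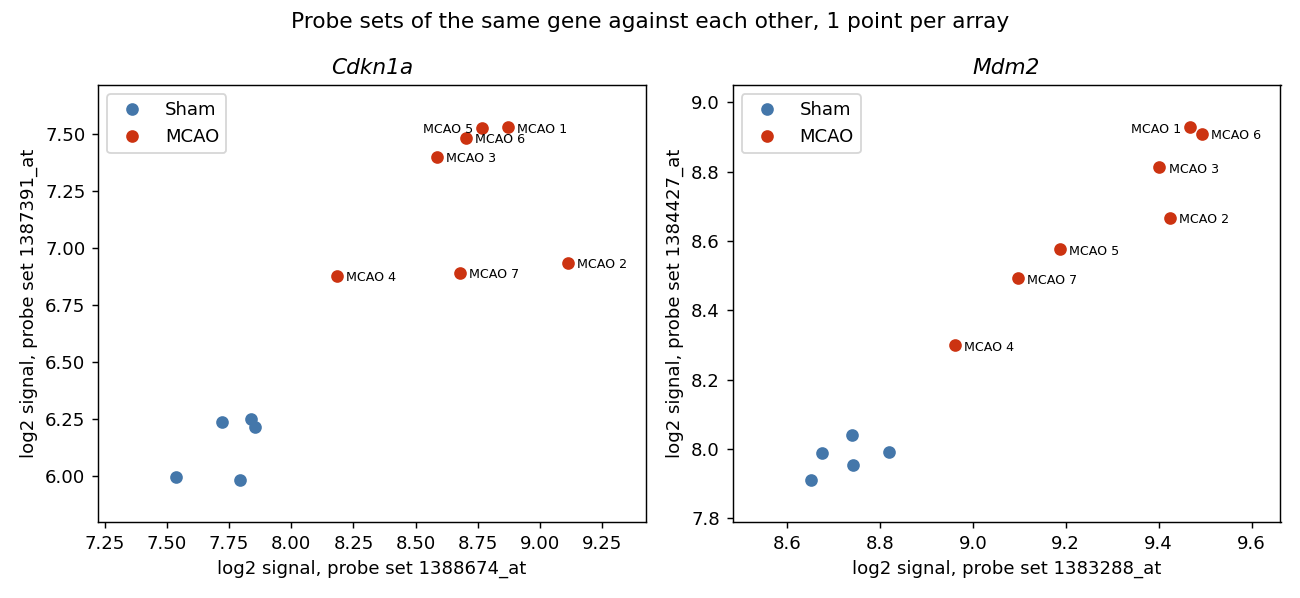
Log2 signals of probe sets of the same gene plotted against each other, 1 point per array (blue Sham, red MCAO with labels), for Cdkn1a on the left and Mdm2 on the right. The Mdm2 points lie along a line, whereas MCAO 2 and MCAO 7 are low on the vertical axis for Cdkn1a (6.93 and 6.89) at horizontal values of 9.11 and 8.68.

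Ccng1 (1367764_at, Entrez Gene 25405) encodes cyclin G1, a p53 target that binds protein phosphatase 2A. It had values of 10.75, 10.58, 10.62, 10.64 and 10.68 in Sham, and 10.69, 10.93 and 11.26 as the lowest, median and highest in MCAO. The groups overlapped, since MCAO 2 and MCAO 7 lay inside the Sham range and 5 of 7 MCAO rats above it. The mean rose by 0.31 ± 0.10 (SE) on the log2 scale or 1.24-fold (limma adjusted p = 0.0280). The call was lost without MCAO 5 (adjusted p = 0.0519), MCAO 6 (0.0546), Sham 2 (0.0677), Sham 3 (0.0621) or Sham 4 (0.0565).

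Phlda3 (1375224_at, Entrez Gene 363989), whose product competes with the kinase Akt for membrane lipids, had values of 7.79, 7.35, 7.63, 7.85 and 7.99 in Sham, and 7.93, 8.17 and 8.56 as the lowest, median and highest in MCAO. MCAO 1 and MCAO 2 lay inside the Sham range and the other MCAO rats above it. The mean rose from 7.72 ± 0.24 (SD, n = 5) to 8.19 ± 0.21 (SD, n = 7), a log2 change of 0.47 ± 0.13 (SE) or 1.38-fold (limma adjusted p = 0.0153). By the probe set that stood for each gene, it was the only member whose SD was not larger in MCAO than in Sham. Of the varying genes 89.4% had the larger SD in MCAO. The second Sesn1 probe set, 1395809_at, also had a smaller SD in MCAO (0.17) than in Sham (0.21).

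Sesn1 (Entrez Gene 294518) encodes sestrin 1, which restrains the growth kinase complex mTORC1. It was the only member that fell. Its brighter probe set, 1372248_at, had values of 8.72, 8.62, 8.65, 8.75 and 8.72 in Sham, and 8.08, 8.33 and 8.78 as the lowest, median and highest in MCAO. In MCAO 4 it was above every Sham rat, and in the other 6 MCAO rats it was below every Sham rat.

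The mean of Sesn1 fell by 0.32 on the log2 scale (SE 0.10, 0.801-fold, limma adjusted p = 0.0262). The second probe set, 1395809_at, had a log2 change of -0.15 ± 0.11 (SE) and did not pass (adjusted p = 0.284 over all tested probe sets). With the probe sets averaged, Sesn1 did not pass either (-0.24, adjusted p = 0.0684), and its call was lost without Sham 1 (0.0532), Sham 4 (0.0591) or Sham 5 (0.0511). Without MCAO 4 its log2 change was -0.39 (limma adjusted p = 0.00135).

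**Figure D3:**
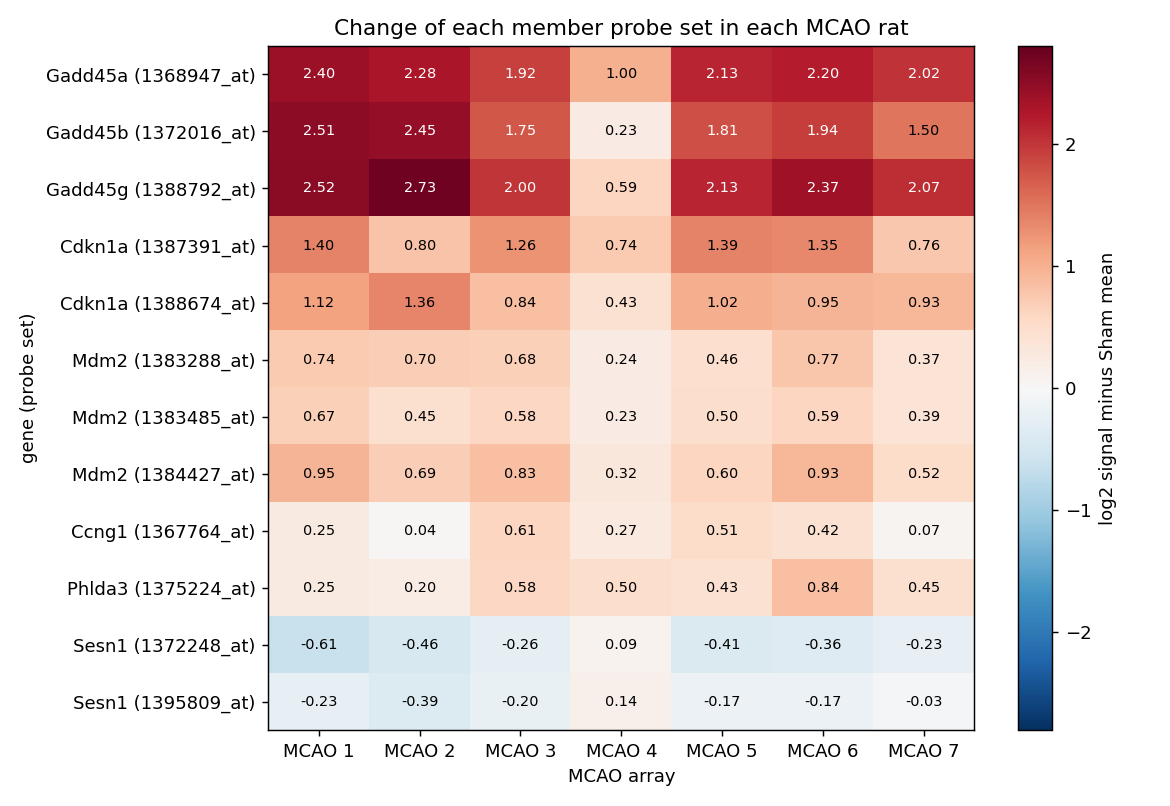
Change of each of the 12 member probe sets (rows) in each of the 7 MCAO rats (columns), as log2 signal minus the Sham mean, with the value in each cell. MCAO 4 is the palest column for the Gadd45 genes and Mdm2, while MCAO 2 has the largest change of Gadd45g (2.73) and the smallest of Ccng1 (0.04) and Phlda3 (0.20).

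The members did not share 1 order of the MCAO rats. MCAO 4 was the lowest MCAO rat for 5 of the 8 genes, the Gadd45 genes, Cdkn1a and Mdm2, and the highest for Sesn1, yet for Ccng1 and Phlda3 it lay among the other MCAO rats. MCAO 2 was the highest rat for Gadd45g and Cdkn1a and the lowest for Ccng1 and Phlda3. The values of each member in the MCAO rats, relative to the Sham mean, also give the order of the changes. Gadd45g changed more than Gadd45a in 5 of 7 rats, with a mean difference of 0.07 ± 0.26 (SD), and Gadd45a more than Gadd45b in 5 of 7 rats (0.25 ± 0.33). Both mean differences were smaller than their SD, and no difference between neighbours was tested. Gadd45b changed more than Cdkn1a in 6 of 7 rats (0.79 ± 0.51), the exception being MCAO 4. Cdkn1a changed more than Mdm2 in all 7 rats (0.38 ± 0.21). For Mdm2 and Phlda3 (4 of 7 rats, 0.10 ± 0.29) and Phlda3 and Ccng1 (5 of 7 rats, 0.16 ± 0.20) the mean difference was smaller than its SD. These differences are of log2 changes, and probe sets of different genes can respond on different scales.

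Across the 7 MCAO arrays, 14 of the 28 pairs of member genes were correlated by Pearson's r and 10 by Spearman's rho (exact permutation tests, adjusted p under 0.05 over 28 pairs). The share of correlated pairs among all varying genes was not taken, so these counts do not set the members apart from other genes. Of the varying genes higher in MCAO, MCAO 4 was the lowest MCAO array for 48.7% and MCAO 2 for 43.1%. The Gadd45 genes went together, with r = 0.97 for Gadd45a and Gadd45b (exact permutation p = 0.00159, adjusted p = 0.00889, rho = 0.96 with exact p = 0.00278 and adjusted p = 0.0194). For Gadd45a and Gadd45g r was 0.98 (exact permutation p = 0.00238, adjusted p = 0.0111, rho = 0.96 with exact p = 0.00278 and adjusted p = 0.0194), and for Gadd45b and Gadd45g it was 0.98 (exact permutation p = 0.00159, adjusted p = 0.00889, rho = 0.93 with exact p = 0.00675 and adjusted p = 0.0236). Cdkn1a, by its brighter probe set, had r of 0.90, 0.94 and 0.95 with Gadd45a, Gadd45b and Gadd45g (exact permutation p = 0.00734, 0.00456 and 0.00119, adjusted p = 0.0211, 0.0183 and 0.00889), with rho of 0.93, 0.89 and 0.96 (exact permutation p = 0.00675, 0.0123 and 0.00278, adjusted p = 0.0236, 0.0344 and 0.0194). Sesn1 ran opposite to them, with r = -0.97 against Gadd45b (exact permutation p = 0.000397, adjusted p = 0.00889, rho = -0.96 with exact p = 0.00278 and adjusted p = 0.0194). The pairs of Mdm2 with Gadd45a, Gadd45b, Gadd45g and Sesn1 passed by r (0.78, 0.85, 0.81 and -0.79) but not by rho. Their adjusted exact permutation p was 0.0425, 0.0211, 0.0425 and 0.0425 for r, and 0.112, 0.0606, 0.133 and 0.164 for rho. Without the 2 arrays farthest from the median of the first gene their r was 0.36, 0.64, 0.63 and -0.18.

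These correlations rested in part on MCAO 4. Without it 0 of 28 pairs passed the adjusted exact permutation test, whose smallest possible p is larger with fewer arrays. Of the pairs 7 had an unadjusted p under 0.05. The r values were then 0.88 for Gadd45a and Gadd45b, 0.86 for Gadd45a and Gadd45g, 0.90 for Gadd45b and Gadd45g, and -0.91 for Gadd45b and Sesn1 over 6 arrays. Without the 2 arrays farthest from the median of the first gene, MCAO 1 and MCAO 4, the same pairs had r of 0.80, 0.90, 0.93 and -0.86, and the relation of Cdkn1a with the Gadd45 genes had r of 0.94, 0.78 and 0.80 without MCAO 2 and MCAO 4. Without MCAO 7, 8 pairs passed. By the dimmer Cdkn1a probe set r with Gadd45a, Gadd45b and Gadd45g was 0.52, 0.49 and 0.41, none of which passed (exact permutation p = 0.194, 0.269 and 0.422, adjusted p = 0.340, 0.377 and 0.492 over 7 pairs). The corresponding rho values were 0.68, 0.75 and 0.54 (exact permutation p = 0.110, 0.0663 and 0.236, adjusted p = 0.192, 0.192 and 0.330). Ccng1 and Phlda3 had r between -0.49 and -0.07 with the Gadd45 genes and the brighter Cdkn1a probe set, but 0.72 and 0.28 with the dimmer one, and none of these pairs passed.

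Outside the members, the genes whose values over the 7 MCAO arrays were most like each member were taken from 6339 varying genes as a description, without a test. For Gadd45g they were Atf3, a stress-induced transcription factor (r = 0.995), Actg1 (0.988) and Sertad1 (0.987). Gadd45a was nearest to Msmo1 (0.996), a sterol synthesis gene, Sertad1 (0.990) and Gclc (0.990), a glutathione synthesis gene. For Gadd45b they were Vgf (0.992), Srxn1 (0.992) and the chaperone gene Hspa5 (0.992). The likest to Cdkn1a were Slc6a17 (0.987), Adamts9 (0.985) and Dnajb5 (0.984), and to Mdm2 Heatr1 (0.981), Dnajc1 (0.968) and Nup93 (0.968). Ccng1 was nearest to Gpr182 (0.984), Cnpy4 (0.980) and C1h16orf54 (0.974), Phlda3 to Krtcap2 (0.986), Ucp2 (0.982) and Tshz2 (0.976), and Sesn1 to Ddt (0.990), Oplah (0.988) and Rnaseh2c (0.987). For every member some gene thus reached an r of at least 0.981, and no gene is singled out by it.

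Other genes of the p53 pathway went both ways. Of 32 listed further p53 targets 23 were tested and 11 varied, of which 5 rose and 4 fell (35.2% and 34.1% of all varying genes did), with a median log2 change of -0.03. The mean over the varying targets, taken per rat relative to Sham, ran from 0.06 to 0.30 in the MCAO rats. The median and the mean thus differ in sign. This mean includes Sfn (1.43), the largest rise of the list, and Gdf15, and was not taken without them. Sfn and Gdf15 passed the filter through their MCAO values, so the mean is no support for a rise of the list. The 2 named by the strength of the limma statistic were Trim32, a ubiquitin ligase gene that fell by 0.34, and the death receptor gene Fas, which is near-constant in these values (log2 change 0.0005) and is not interpreted. The others that passed are given after their values were seen. Those that rose were Sfn (1.43), a cell cycle checkpoint adaptor, Ninj1 (0.74), which takes part in plasma membrane rupture, the exonuclease gene Aen (0.73), the sestrin gene Sesn2 (0.66) and the stress cytokine gene Gdf15 (0.14). Those that fell were Rprm (-0.64), Fbxw7 (-0.43) and Zmat3 (-0.28). All Sham values of Sfn and Gdf15 lay under the filter, so both were tested only because of their MCAO values. The Sham mean of Sfn was 6.19, and its value in MCAO 4 was level with the highest Sham value (both 6.32).

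Of 23 listed regulators of p53, 15 were tested and 9 varied. In this list 3 rose and 2 fell (35.2% and 34.1% of all varying genes did), with a median of -0.14. The mean per rat ran from -0.003 to 0.09 in MCAO and from -0.04 to 0.02 in Sham. The ubiquitin ligase gene Cop1 (0.19 ± 0.04, SE) and the ribosomal protein gene Rpl5 (0.40 ± 0.08), whose product binds Mdm2, rose, and also Rpl11 (0.52). The deubiquitinase gene Usp7 fell by 0.14. Mdm4, the partner of Mdm2, missed the threshold with a log2 change of -0.24 (limma adjusted p = 0.123).

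Partners of the Gadd45 proteins and the kinases below them were also found on both sides. Of 19 listed genes 16 were tested and 14 varied, with 4 higher, 4 lower and a median log2 change of 0.10, where 35.2% of all varying genes rose and 34.1% fell, so these counts are near the background. Pcna, the DNA polymerase clamp, rose by 0.67 ± 0.11 (SE) and the DNA glycosylase gene Tdg by 0.27 ± 0.05, while the DNA demethylation gene Tet1 fell by 0.36. The p38 kinase activators went opposite ways, with Map2k3 at 0.79 and Map2k6 at -0.53 (limma adjusted p = 0.00317 and 0.0288, named after their values were seen). Map3k4, which Gadd45 proteins bind, missed the threshold with a log2 change of 0.10 (limma adjusted p = 0.149). Cdk1 rose by 1.13, but MCAO 2 (6.07) lay inside its Sham range of 5.90 to 6.23 while MCAO 4 (7.39) lay above it. All Sham values of Cdk1 were under the filter, so it was tested only because of its MCAO values.

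Relatives of the members and cell cycle genes were counted in the same way. Of 13 listed relatives 12 were tested and 8 varied, with 4 higher, 2 lower and a median of 0.22. Phlda1, among those higher, had most of its Sham values under the filter. Within the sestrins, Sesn2 and Sesn3 rose (0.66 and 0.51, limma adjusted p = 0.0145 and 0.0287) while Sesn1 fell. Cyclin G2, the relative of Ccng1, fell by 0.39 and the antiproliferative gene Tob1 by 0.20. Of 18 cyclins, kinases and INK4 inhibitors 14 were tested and 6 varied, with 4 higher, 1 lower and a median of 0.31. Among those higher, Ccna2 (cyclin A2), had all its Sham values under the filter. Ccnd1, cyclin D1, rose by 0.98 ± 0.13 (SE), and the phosphatase gene Cdc25b fell by 0.08. Btg4 and Cdk2, which the naming rule also picked, are near-constant here, with log2 changes of -0.00028 and 0.00033. Over all these lists together 19 varying genes rose, with Sfn, Gdf15, Cdk1 and Ccna2 among them, and 13 fell, and without Sham 2 the latter count was 8. Beside the counts in this paragraph, 35.2% of all varying genes rose and 34.1% fell.

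**Figure D4:**
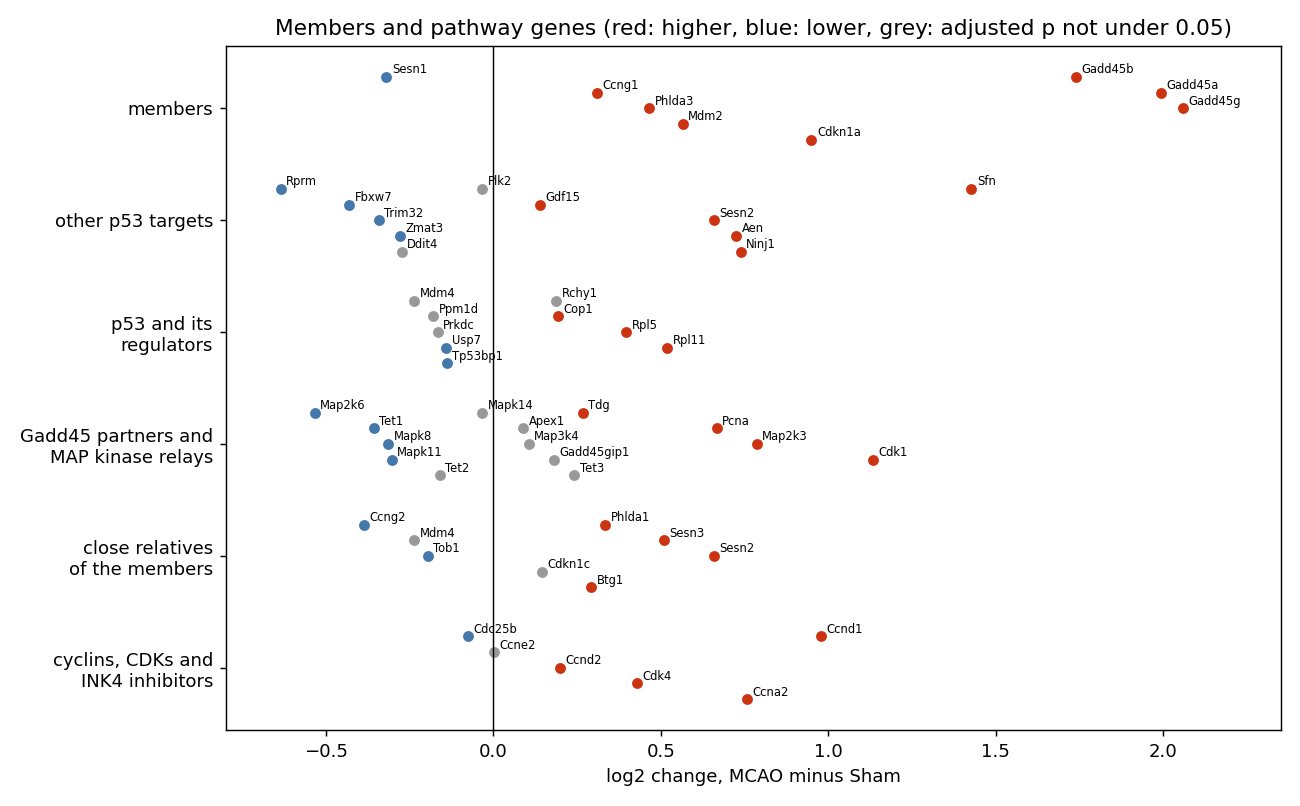
Log2 change, MCAO minus Sham (horizontal axis), of the 8 members and of the varying genes of the 5 pathway lists (rows), 1 point per gene, coloured by the limma call (red higher, blue lower, grey not passed). The members lie mostly to the right, with the Gadd45 genes at 1.74 to 2.06, and the lists spread to both sides of 0.

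Markers of cell types were set beside these values, and 35.2% of all varying genes rose and 34.1% fell. All 6 varying markers of neutrophils and monocytes rose. Among them S100a8 and S100a9 had every Sham value under the filter and so were tested only because of their MCAO values. Ly6c, Plac8 and Ptprc had some Sham values under it, so of the 6 only Lyz2 passed by its Sham values alone. The count and the mean of this list are thus a description only. The mean log2 difference of this list from the Sham mean ran from 0.68 to 1.91 in MCAO and from -0.12 to 0.09 in Sham. Of its 10 listed genes Mpo, Ccr2, Cxcr2 and Camp were not tested. In MCAO 4 this mean was 0.99, and the MCAO median was 1.05. Of the 5 varying microglia markers 3 rose and 2 fell, with means of -0.08 to 0.49 in MCAO and -0.08 to 0.21 in Sham. Itgam, among those that rose, had most of its Sham values under the filter. Neuron markers fell in 4 of 8 cases (means of -0.39 to -0.06 against -0.07 to 0.07), astrocyte markers rose in 1 and fell in 4 of 7 (-0.11 to 0.23 against -0.03 to 0.04). Oligodendrocyte markers fell in 2 of 5 (-0.38 to 0.05 against -0.18 to 0.15), and endothelial and pericyte markers rose in 2 and fell in 1 of 6 (-0.24 to 0.03 against -0.17 to 0.10). MCAO 4 had the highest mean of the 7 MCAO arrays for microglia (0.49, median 0.30), astrocytes (0.23, median -0.05) and oligodendrocytes (0.05, median -0.09). Its mean for neurons was -0.13 (median -0.29), and for endothelial cells and pericytes it was 0.02 (median -0.02). The part of these cell types in the changes of the members was not tested.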

How the data were processed

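The authors' deposited table gives 12 arrays and 31099 probe sets (biotin-labelled from total RNA, per the labels' protocols). Its values, used as deposited, were taken as log2 signals from their range. For the log base, background correction, summarization and normalization the sources used here name nothing. In total 20832 probe sets had 1 gene. Genes were named from the array annotation, with symbols updated by Entrez Gene number to RefSeq. Probe sets above 6.61 (25th percentile) in at least 5 arrays were tested (17250), and the probe set of highest mean stood for each gene (12157 genes).

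MCAO and Sham were set against each other in limma 3.58.1 (R 4.3.3, lmFit, eBayes with trend, two-sided, Benjamini-Hochberg over all genes or all probe sets, threshold 0.05), and the procedure was tested on simulated data. The p-values measure the spread between these rats. Correlations used exact two-sided permutation tests over the 7 MCAO arrays, whose smallest possible p is 0.000198. The members and lists were chosen with earlier results of these data known. All members were named, with the 2 genes of strongest limma statistic per list, the strongest of the minority direction and the 3 likest genes per member. Others are said to be named after their values were seen. The control probe sets of MCAO 6 were displaced by 12 positions and realigned. Of the near-constant gene probe sets 99.96% matched in that array (within 0.05), so gene rows were used as they stand. Alternatives were other scalings, filters, probe set rules, variance models, an exact permutation test, a replicate block and left-out arrays.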

Additional observations from a re-analysis of the deposited data

Results flagged for a closer look

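MCAO 4 stood apart from the other 6 MCAO rats for Gadd45a, where its log2 signal of 8.50 was 0.92 below the next rat. For Gadd45g its signal of 7.75 was 1.40 below the next. In each case this gap made up more of the group's range (0.66 for both genes) than Dixon's 95% critical value for 7 samples. In all 24 groups of values were examined (12 probe sets in 2 groups), so some flags can arise by chance. The groups share arrays and are not independent, and the 2 flags were not tested against chance. Both flags come from 1 array. Beyond the members, MCAO 4 had the lowest MCAO value for 48.7% of the varying genes that were higher in MCAO. It had the highest MCAO value for 54.3% of those that were lower.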

How the results depend on the processing

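The rises of Gadd45a, Gadd45b, Gadd45g, Cdkn1a and Mdm2 kept their direction and passed under all 24 alternatives, with adjusted p up to 0.0296, 0.0453, 0.0351, 0.0382 and 0.0358. Ccng1 lost its call under 6 of them, Sesn1 under 5 and Phlda3 under 1, and no member changed sign. The count of members lower was 0 with the mean of probe sets (limma, with 1 at an unadjusted p under 0.05). Leaving out single arrays gave 6 to 7 members higher and 0 to 1 lower, 9 to 10 member probe sets higher and 0 to 1 lower, 17 to 21 pathway genes higher and 8 to 16 lower, and 4296 to 6070 genes called. MCAO 2 and MCAO 4 left out together, an alternative chosen after seeing the data, changed no call of a member. The correlated pairs numbered 0 without the 2 arrays farthest from the median of the first gene (exact permutation, 4 at an unadjusted p under 0.05). With 5 arrays the smallest possible exact p is so large that a single pair could not pass over 28 pairs. This 0 therefore does not show that the correlations were lost. The correlated pairs numbered 0 to 12 without single MCAO arrays, and 7 with the other Cdkn1a probe set. The probe set swap and the single left-out arrays were chosen for the correlations after seeing the data.

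For the replicate numbers that MCAO and Sham share, deviations of same-numbered arrays correlated between -0.33 and 0.54. In order of number the values were 0.32, 0.54, -0.33, -0.05 and 0.16. Arrays of different numbers were not compared in this way, so whether the numbers pair the arrays was not tested. With the replicate block on numbers 1 to 5, which uses fewer arrays, 3124 genes were called, 6 pathway genes were lower, and 0 members and 0 member probe sets were lower (limma, 1 each at an unadjusted p under 0.05). Ccng1 (adjusted p = 0.0683), Phlda3 (0.0507) and Sesn1 (0.0914) then missed the threshold. The cause of these shifts was not tested.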
